A study of Rattus norvegicus with 8 samples.

Results

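Enzymes that build triglyceride, from glycerol 3-phosphate or from monoacylglycerol, were followed through 10 genes in rat liver cells in which lnc19959.2, a long noncoding RNA, was targeted by siRNA. The genes were Gpam, Agpat1, Agpat2, Agpat3, Lpin1, Lpin2, Dgat1, Dgat2, Mogat1 and Mogat2. They were chosen by name for their place in glycerolipid synthesis, and every non-control probe carrying one of those names was taken, which gave 10 of the 35071 gene names and 15 of the 41012 probes on the array. Gpam, Agpat1, Agpat2, Lpin1, Mogat1 and Mogat2 had 1 probe each, Agpat3, Lpin2 and Dgat1 had 2, and Dgat2 had 3. Each probe is described apart.

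The cells were BRL-3A, an established line from rat liver, transfected with lipofectamine 2000 and collected 48 h later. There were 4 arrays of cells whose transfection is labelled NC and 4 of cells given the lnc19959.2 siRNA. The series asked how lnc19959.2 bears on genes of triglyceride metabolism. Each sample's total RNA was labelled with Cy3 and read on its own one-colour array, the Agilent Whole Rat Genome design. Values below are log2 processed signals minus the 75th percentile of the same array, so a value of 0 is a signal at that percentile, and a difference is always siRNA minus NC.

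The 75th percentile of the processed intensity itself was 246 to 261 on NC arrays and 289 to 323 on siRNA arrays, and 57.3% to 64.1% of spots were well above background on the former against 55.4% to 59.1% on the latter. Over kept probes, Pearson's r was 0.986 to 0.993 between arrays of 1 group and 0.946 to 0.962 across groups, and no pair was identical. The NC arrays shared 1 slide and scan and the siRNA arrays a different slide and scan, so group cannot be told apart from either. No probe of the array is named for lnc19959.2, so its own level was not checked. Arrays of a group are not said to be separate cultures, so every p-value rests on the spread among these arrays alone, and that spread may be technical.

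In the glycerol phosphate pathway, a glycerol 3-phosphate acyltransferase adds the first fatty acid, an acylglycerol-phosphate acyltransferase adds the next to give phosphatidate, and a lipin removes the phosphate to give diacylglycerol. A diacylglycerol acyltransferase then makes triglyceride. The monoacylglycerol acyltransferases reach diacylglycerol by another way, from monoacylglycerol, the main route of fat absorption in the intestine. In liver, triglyceride made by these enzymes is stored in droplets or secreted in lipoproteins.

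Probes of Gpam, Lpin2, Dgat2, Mogat1 and Mogat2 that were called higher or lower are shown from 5′ to 3′ as the array design gives them, since each value belongs to its probe and not to the whole transcript.
Gpam A_44_P242969: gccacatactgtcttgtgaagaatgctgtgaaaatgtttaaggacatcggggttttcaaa
Lpin2 A_44_P1045748: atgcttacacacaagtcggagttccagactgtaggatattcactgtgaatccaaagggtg
Lpin2 A_44_P690201: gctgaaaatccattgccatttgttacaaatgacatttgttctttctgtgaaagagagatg
Dgat2 A_43_P15649: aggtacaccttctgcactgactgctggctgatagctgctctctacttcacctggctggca
Dgat2 A_44_P180012: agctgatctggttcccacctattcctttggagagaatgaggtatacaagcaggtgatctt
Mogat1 A_44_P1018098: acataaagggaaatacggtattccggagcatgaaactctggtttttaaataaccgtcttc
Mogat2 A_44_P119107: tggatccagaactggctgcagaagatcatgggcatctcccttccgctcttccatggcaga
All are 60 bases long. No pair of the 15 member probes shared a run of more than 9 bases, over 105 pairs compared in the printed orientation, and their GC content ran from 35.0% to 55.0%. In the array design's rn4 coordinates 14 of the 15 probes had a position and 1, Lpin2 A_44_P690201, had none. Those positions do not say which exon or untranslated region a probe lies in, and no rn4 annotation was used here.

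Across the members, transcripts rose and fell side by side. Of the 14 probes tested, 5 rose (Gpam, both of Agpat3, 1 of Lpin2 and Mogat2), 4 fell (the other of Lpin2, Mogat1 and 2 of the 3 of Dgat2, whose sign turned with median and spike-in scaling), and 5 were not called (Agpat1, Agpat2, both of Dgat1 and the remaining Dgat2 probe). The calls are those of limma at an adjusted p under 0.05 over 24853 kept probes, of which 29.7% rose and 31.9% fell (61.7% in all); the member shares of 35.7% and 28.6% were near these. Their median difference was 0.11, against -0.03 for all kept probes, whose lower and upper quartiles were -0.43 and 0.28. In 10 of the 14 the 4 siRNA arrays did not overlap the 4 NC arrays, as in 58.1% of all kept probes. Of the 13 probes above background on all 8 arrays, 5 rose and 3 fell. In a fit of all 20695 such probes of the array, 6967 rose and 5889 fell. The remaining tested member probe, Lpin2 A_44_P1045748, was kept through its NC arrays alone, so it had to differ and its call is no support. It was also the one called past 2-fold, as were 3.39% of kept probes upward and 9.72% downward. Lpin1, the remaining member, was well above background on none of the 8 arrays and was not tested.

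**Figure D1:**
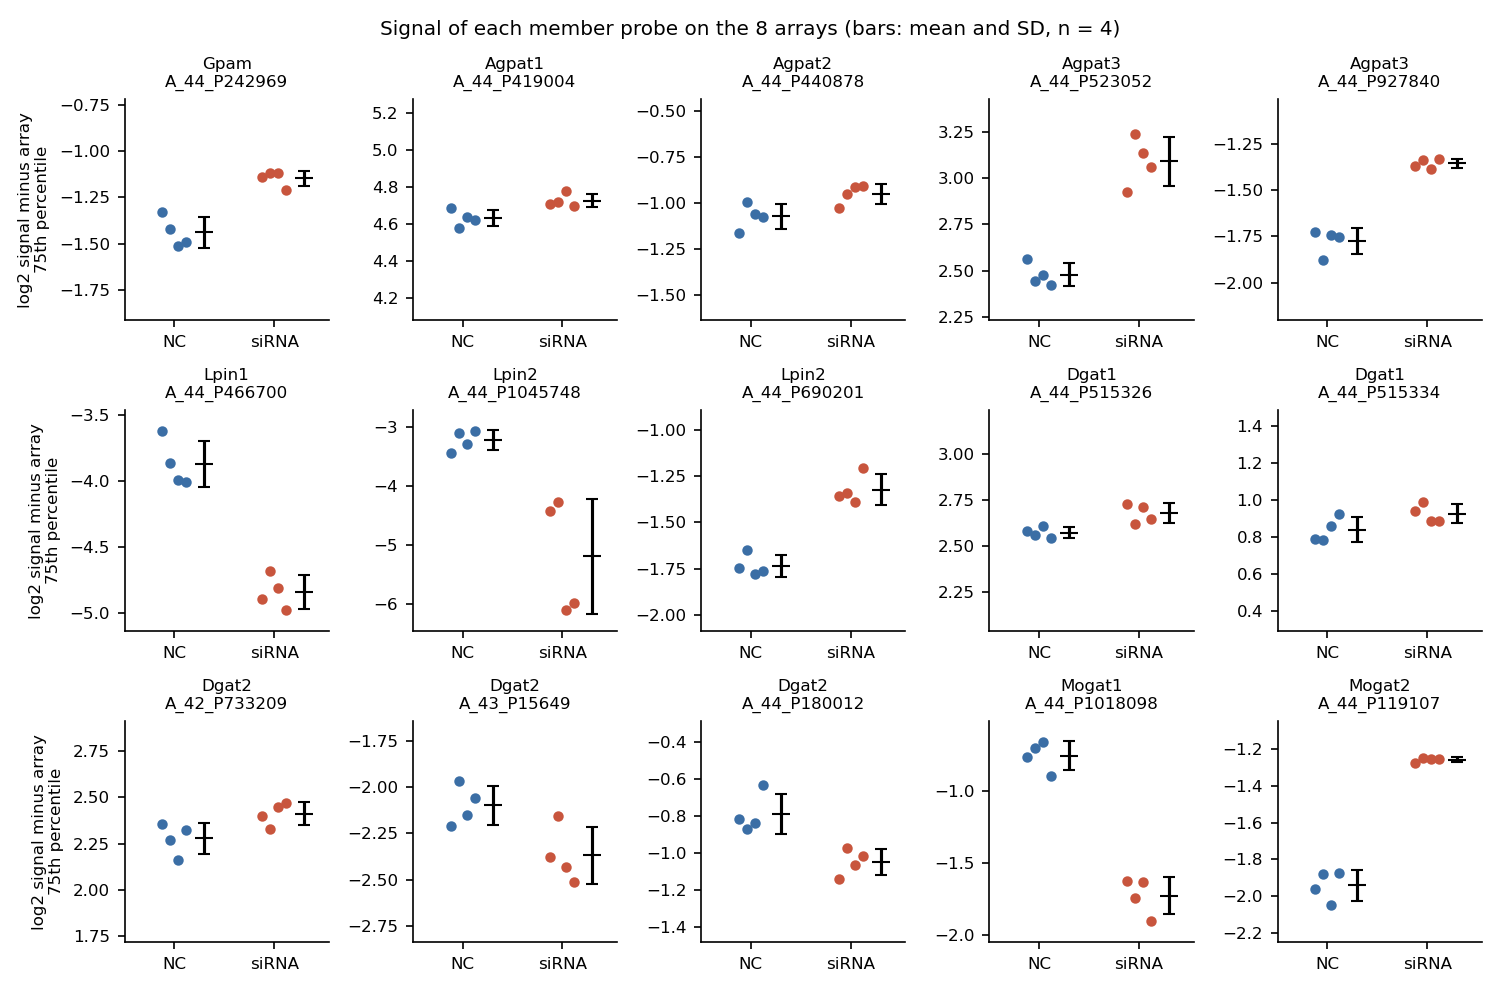
Log2 signal minus the array's 75th percentile (vertical axis, scale set per panel) for the 15 member probes on the 4 NC (blue) and 4 siRNA (red) arrays, with mean and SD as bars. The siRNA arrays sat above all NC arrays for Gpam, both Agpat3 probes and Mogat2, and below them for Mogat1. The Lpin2 panels go opposite ways, but A_44_P1045748 was well above background on no siRNA array. The Lpin1 probe was not well above background on any array.

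Gpam encodes the mitochondrial glycerol 3-phosphate acyltransferase that commits fatty acids to glycerolipids, and its level rose modestly. Its probe covers a span of 5384 genomic bases at chr1:261370372-261375755 on the minus strand. The log2 signal was -1.33, -1.42, -1.51 and -1.49 on NC arrays 1 to 4 and -1.14, -1.12, -1.12 and -1.21 on siRNA arrays 1 to 4. Every siRNA array was above every NC array. The difference was 0.29 ± 0.06 (SE; 95% interval 0.16 to 0.42), a 1.22-fold higher level with an adjusted p of 0.00243, and 75.6% of all kept probes had a lower difference. Over the 8 arrays the named genes whose signal followed Gpam most closely, among 14542 candidates, were Arl1, Uchl5 and Psmb7, with Pearson's r of 0.998, 0.997 and 0.997. Their own differences were 0.21 ± 0.05, 0.42 ± 0.07 and 0.17 ± 0.04 (SE), and r over arrays in separate groups is given as a description only.

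The next enzymes, which convert lysophosphatidate to phosphatidate, were called for 1 of the 3 genes. Agpat1, a widely expressed member of the family, has its probe at chr20:4237812-4237871 on the minus strand. Its signal was 4.69, 4.58, 4.64 and 4.62 on NC arrays 1 to 4 and 4.71, 4.72, 4.78 and 4.70 on siRNA arrays 1 to 4. The groups did not overlap, yet the difference of 0.10 ± 0.04 (SE; 95% interval -0.01 to 0.20) had an adjusted p of 0.0949 and was not called.

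Agpat2, whose loss causes a congenital lipodystrophy in people, is read by a probe spanning chr3:4772946-4773114 on the minus strand. Its levels were -1.16, -0.99, -1.06 and -1.08 on NC arrays 1 to 4 and -1.03, -0.95, -0.91 and -0.91 on siRNA arrays 1 to 4. Here the siRNA values lay mostly above the NC values but overlapped them. The difference was 0.12 ± 0.05 (SE; 95% interval -0.0024 to 0.25; adjusted p 0.0804).

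Agpat3, of the 3 members of this step, was the one that rose, by both of its probes, whose starts lie 3171 bases apart on the plus strand of chr20. Probe A_44_P523052, at chr20:10747120-10747179, gave 2.56, 2.44, 2.48 and 2.42 on NC arrays 1 to 4 and 2.93, 3.24, 3.14 and 3.06 on siRNA arrays 1 to 4. Probe A_44_P927840, at chr20:10750291-10750350, gave -1.72, -1.88, -1.74 and -1.75 on NC arrays 1 to 4 and -1.37, -1.33, -1.38 and -1.33 on siRNA arrays 1 to 4. For both, all 4 siRNA arrays were above all 4 NC arrays. The first differed by 0.61 ± 0.07 (SE), or 1.53-fold, with an adjusted p of 0.000243. The second differed by 0.42 ± 0.05 (SE), or 1.34-fold, with an adjusted p of 0.000225. On each array the distance between the probes changed by -0.19 between groups, with overlapping arrays and an exact two-sided permutation p of 0.0571, and by 0.04 and -0.03 after quantile normalization and cyclic loess.

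The lipins dephosphorylate phosphatidate and also act on transcription in the nucleus. Lpin1 encodes the founding member of the family. Its probe, at chr6:40258060-40258119 on the minus strand, had a mean processed intensity of 17.6 on NC arrays and 10.6 on siRNA arrays. None of these is well above background by the scanner software, so no level, fold or direction is given for Lpin1.

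Lpin2, a lipin found in liver, was called in opposite directions by its probes. The lower call, of A_44_P1045748, is no support, since that probe was kept through its NC arrays alone. Probe A_44_P690201, with no position in the design, read -1.75, -1.65, -1.78 and -1.77 on NC arrays 1 to 4 and -1.35, -1.34, -1.39 and -1.20 on siRNA arrays 1 to 4. This was higher on every siRNA array than on any NC array, by 0.41 ± 0.06 (SE; 1.33-fold; adjusted p 0.000520). Probe A_44_P1045748, at chr9:110452130-110452189 on the plus strand, read -3.43, -3.10, -3.28 and -3.07 on NC arrays 1 to 4 and -4.42, -4.26, -6.09 and -5.97 on siRNA arrays 1 to 4.

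The second Lpin2 probe was well above background on 4 of 4 NC arrays and 0 of 4 siRNA arrays, and 1 of its 8 values was a surrogate that the scanner software sets near 0. Of its siRNA arrays, replicates 1 and 2 were higher than replicates 3 and 4, and their SD was 0.98 against 0.17 on NC arrays. The measured difference was -1.97 ± 0.44 (SE; adjusted p 0.00527), but with the siRNA side below background the data give only a bound, at least 2.21-fold lower. That bound sets the NC mean against the mean, over siRNA arrays, of the higher of the probe's own signal and the lowest signal of any probe well above background. Both Lpin2 probes were assigned by the same kind of match, a RefSeq accession of the array design that carries the symbol Lpin2, and which transcripts each reads was not tested.

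Dgat1 and Dgat2 are unrelated proteins that both catalyse the last step of triglyceride synthesis. Dgat1, which esterifies fatty acids largely taken up from outside the cell, was not called by either of its probes, whose starts lie 754 bases apart on the minus strand of chr7. Probe A_44_P515326, at chr7:114552281-114552340, gave 2.58, 2.56, 2.61 and 2.55 on NC arrays 1 to 4 and 2.73, 2.62, 2.71 and 2.65 on siRNA arrays 1 to 4. Its groups did not overlap, and the difference was 0.10 ± 0.05 (SE; 95% interval -0.0021 to 0.21; adjusted p 0.0805). Probe A_44_P515334, at chr7:114553035-114553094, gave 0.79, 0.79, 0.86 and 0.93 on NC arrays 1 to 4 and 0.94, 0.99, 0.89 and 0.89 on siRNA arrays 1 to 4. Here the arrays of the groups overlapped, and the difference was 0.09 ± 0.05 (SE; 95% interval -0.04 to 0.21; adjusted p 0.190).

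Dgat2, which joins newly made fatty acids into triglyceride at the endoplasmic reticulum and lipid droplets, had probes that did not give 1 answer. All lie on the minus strand of chr1, so the transcript runs from high to low coordinates. Probe A_42_P733209, at chr1:156447836-156447895 and so the most 3′ of the set, gave 2.36, 2.27, 2.16 and 2.33 on NC arrays 1 to 4 and 2.40, 2.33, 2.45 and 2.47 on siRNA arrays 1 to 4. Its groups overlapped and the difference of 0.13 ± 0.06 (SE; 95% interval -0.0047 to 0.27; adjusted p 0.0840) was not called.

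The Dgat2 probes further upstream fell, though not under median or spike-in scaling. Probe A_44_P180012, at chr1:156450786-156450845, gave -0.81, -0.87, -0.84 and -0.63 on NC arrays 1 to 4 and -1.14, -0.97, -1.06 and -1.02 on siRNA arrays 1 to 4. Every siRNA array was below every NC array, with a difference of -0.26 ± 0.07 (SE; 1.20-fold; adjusted p 0.0111). Probe A_43_P15649, at chr1:156459399-156459458, gave -2.21, -1.97, -2.15 and -2.06 on NC arrays 1 to 4 and -2.38, -2.15, -2.43 and -2.51 on siRNA arrays 1 to 4. Here 1 siRNA array, replicate 2, lay within the NC values, and the difference was -0.27 ± 0.09 (SE; 1.21-fold; adjusted p 0.0303).

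Both Dgat2 calls were small beside the choice of scaling. Before scaling, the 2 probes overlapped between groups, with mean intensities of 149 on NC and 147 on siRNA arrays for A_44_P180012 and 59.9 and 58.9 for A_43_P15649. Their sign turned with median scaling, to 0.04 and 0.03, and with spike-in scaling, to 0.27 and 0.26. The call of A_43_P15649 was also lost without NC replicate 2, NC replicate 4, or siRNA replicate 1, 3 or 4, at adjusted p of 0.0613 to 0.0806, and with quantile normalization or cyclic loess, at differences of -0.11 and -0.15.

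The monoacylglycerol acyltransferases were called in opposite directions. Mogat1, normally low in liver and raised in fatty liver of mice, fell: its probe at chr9:77908560-77908619 on the plus strand gave -0.76, -0.70, -0.66 and -0.89 on NC arrays 1 to 4 and -1.63, -1.74, -1.63 and -1.90 on siRNA arrays 1 to 4. All siRNA arrays were lower than all NC arrays, with a difference of -0.97 ± 0.08 (SE; 95% interval -1.16 to -0.78), or 1.96-fold lower, with an adjusted p of 4.33e-05. A lower difference was found in 11% of all kept probes.

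Mogat2, the main enzyme of fat absorption in the intestine, rose: its probe at chr1:156519535-156519594 on the minus strand gave -1.96, -1.88, -2.05 and -1.87 on NC arrays 1 to 4 and -1.28, -1.25, -1.26 and -1.25 on siRNA arrays 1 to 4. The siRNA arrays spread over an SD of only 0.01, against 0.08 on NC arrays, and lay above all of these. The difference was 0.68 ± 0.05 (SE; 95% interval 0.56 to 0.80), or 1.60-fold, with an adjusted p of 3.03e-05, and 91.7% of kept probes had a lower one. Mogat2 and Dgat2 are neighbours on chr1, with probes that start 60136 to 71699 bases apart in rn4, and in the RefSeq annotation of GRCr8 no protein-coding gene starts between them. The neighbours' differences were 0.68 for Mogat2 and 0.13, -0.26 and -0.27 for the probes of Dgat2.

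**Figure D2:**
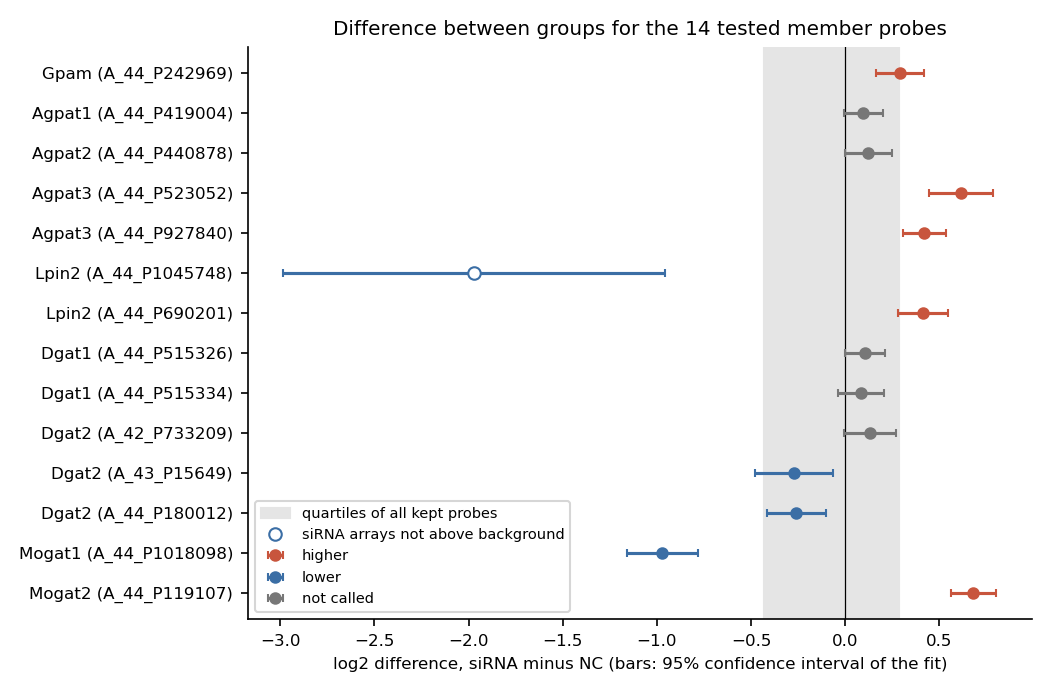
Log2 difference, siRNA minus NC (horizontal axis), with the 95% confidence interval of the fit for the 14 tested member probes, coloured by call; the grey band runs between the quartiles of all kept probes, -0.43 and 0.28. The open point, Lpin2 A_44_P1045748, was above background on no siRNA array, so its value is no measured size. Mogat1, Mogat2, both Agpat3 probes and Lpin2 A_44_P690201 lie outside that band, and Gpam lies at its upper edge.

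Members were also compared with each other on the same array, where a scaling that adds 1 amount to every probe drops out; quantile normalization and cyclic loess do not drop out. Each value is the distance between 2 probes on the log2 scale; only its change between groups can be read, since probes differ in how strongly they bind. Of 13 pairs, 7 of isoenzymes and 6 of probes of 1 gene, 7 had groups that did not overlap. The share over other pairs of kept probes was not computed, and 58.1% of single kept probes did not overlap. Among the 7 is the Lpin2 pair, in which A_44_P1045748 was kept through its NC arrays alone, so its separation is no support. The exact two-sided permutation test has 70 splits and a smallest p of 0.0286, which all 7 reached; after Benjamini-Hochberg adjustment over the 13 this became 0.0531, so 0 pairs were called.

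The distance of Mogat2 from Mogat1 went from -1.19 ± 0.17 on NC arrays to 0.47 ± 0.14 on siRNA arrays (SD, n = 4 each), a change of 1.65. Against the 3′ Dgat2 probe, Mogat1 changed by -1.10 and Mogat2 by 0.55. Agpat3 A_44_P523052 changed by 0.52 against Agpat1 and by 0.49 against Agpat2, while Agpat2 against Agpat1 changed by 0.03 with an exact permutation p of 0.743. Each of these changes but the last had an exact permutation p of 0.0286. After quantile normalization or cyclic loess, Mogat2 against Mogat1 changed by 1.68 under both, Agpat3 against Agpat2 by 0.30 and 0.37, and Agpat2 against Agpat1 by 0.23 and 0.16. With normexp, another background correction described below, Mogat2 against the 3′ Dgat2 probe changed by -0.10 and the groups overlapped. With spots dimmer than the local background dropped first, that change was 0.34 without overlap.

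Among probes of 1 gene, the distance of Lpin2 A_44_P690201 from A_44_P1045748 was 1.48 ± 0.16 on NC arrays (SD, n = 4). On siRNA arrays, where the latter was below background, it was at least 3.04, so it changed by at least 1.56, with the same floor as above. That bound holds for the processed signal only. With normexp the change was 0.91, and 0.75 with the dim spots dropped first, both less than the bound. The upstream Dgat2 probe A_44_P180012 changed by -0.39 against the 3′ probe without overlap (exact permutation p 0.0286), but by -0.22 with overlap after quantile normalization and -0.28 after cyclic loess, whereas the upstream pair changed by 0.01 against each other (exact permutation p 0.943). Dgat2 at its 3′ probe and Dgat1 changed by 0.03 against each other (exact permutation p 0.657). A pair of Lpin1 with Lpin2 could not be formed, since Lpin1 was not measured.

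**Figure D3:**
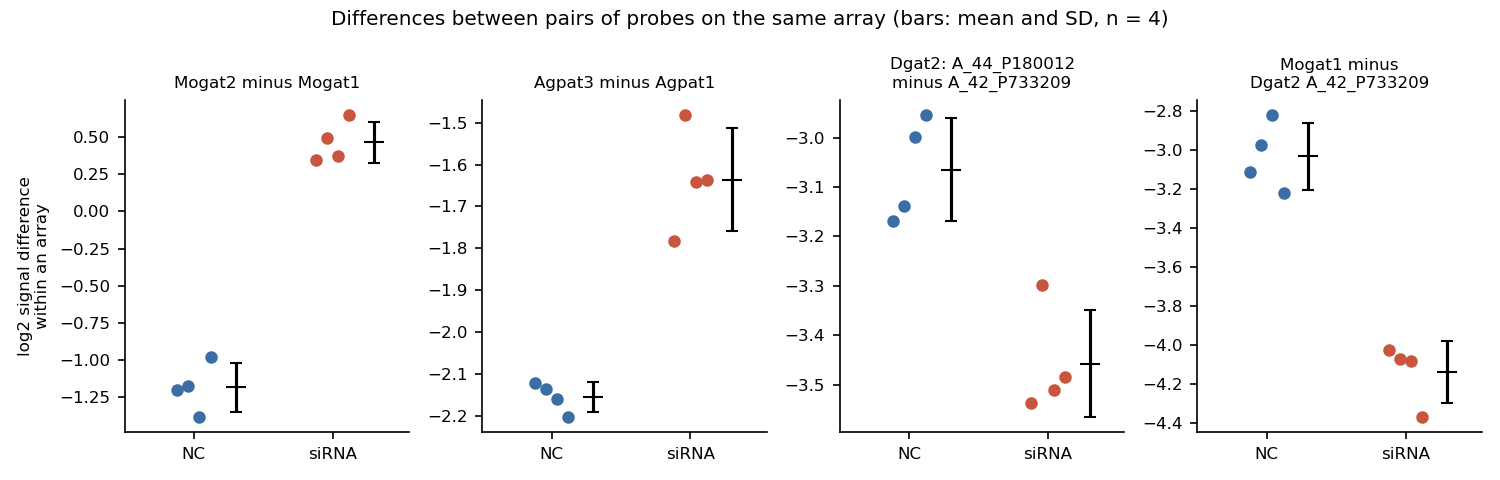
Difference between the log2 signals of 2 probes on the same array (vertical axis, scale set per panel) for 4 of the 13 pairs, on 4 NC and 4 siRNA arrays, with mean and SD as bars. In every panel the groups are apart; the change is 1.65 for the Mogat pair, 0.52 for Agpat3 against Agpat1, -0.39 for the Dgat2 probes and -1.10 for Mogat1 against Dgat2.

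How many members were called depended on what was held constant between arrays. Scaling to the median in place of the 75th percentile moved all probes up by 0.30, and scaling to 7 spike-in control probes moved them up by 0.53. With the median, 10 member probes were higher and 2 lower, while 52.1% of all kept probes were higher and 17.1% lower. With the spike-ins, 12 member probes were higher and 2 lower, while 65.5% of kept probes were higher and 10.9% lower. Each of these scalings adds the same amount to every probe of an array, so the members kept their order.

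Over the 5 other scalings, Gpam stayed between 0.21 and 0.83, Agpat3 between 0.50 and 1.15 at A_44_P523052 and between 0.34 and 0.95 at A_44_P927840, and Mogat2 between 0.60 and 1.21. Mogat1 stayed between -1.05 and -0.44. Lpin2 A_44_P690201 stayed between 0.33 and 0.95, and A_44_P1045748, with no measured siRNA level, stayed lower. Agpat1 ran from -0.03 to 0.63 and Dgat1 A_44_P515326 from -0.01 to 0.64, so neither had a settled direction. Agpat2 stayed between 0.04 and 0.66 and was called higher with the median, the spike-ins, quantile normalization and cyclic loess. Another background correction, normexp on the mean and local background signals, ended the calls of Gpam (-0.01), Agpat3 A_44_P927840 (-0.02), both Lpin2 probes, both upstream Dgat2 probes and Mogat2. With the few spots dimmer than the local background dropped first, the 9 called member probes were all called again in their direction, but several were smaller. Mogat2 was then 0.44, Mogat1 -0.64, Gpam 0.18, Agpat3 A_44_P927840 0.19 and Lpin2 A_44_P1045748 -0.47, which is less than the bound printed above.

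**Figure D4:**
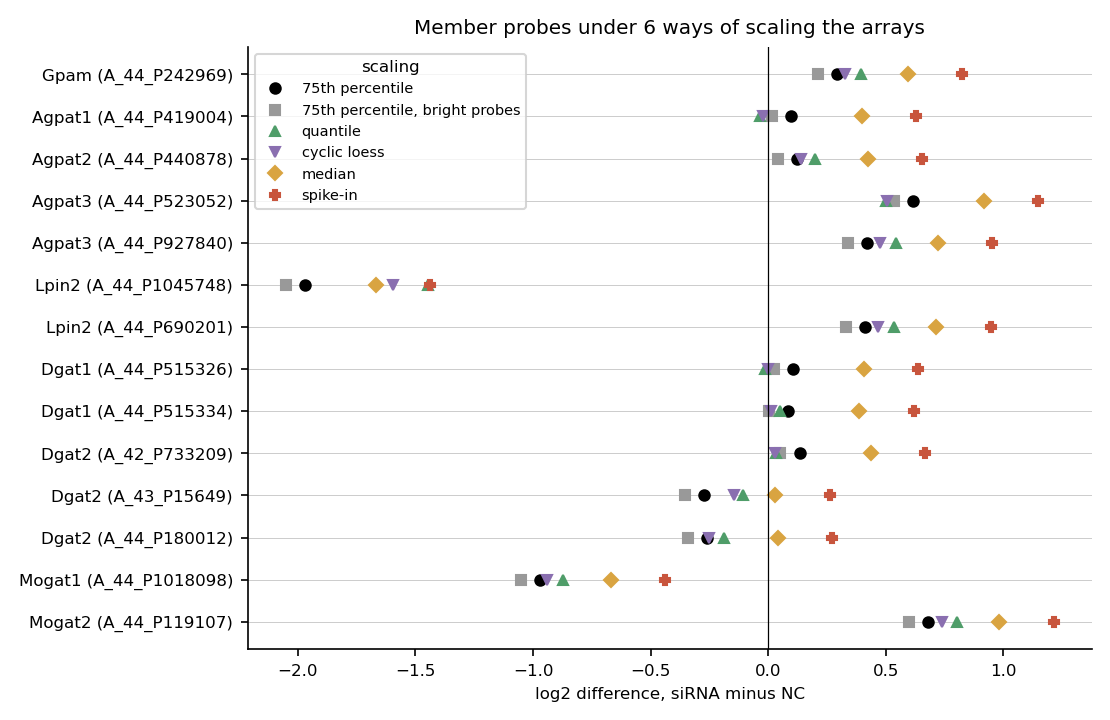
Log2 difference, siRNA minus NC (horizontal axis), of the 14 tested member probes under the 75th percentile scaling used here and 5 other scalings, 1 symbol each. Spike-in scaling moves every probe up by 0.53; of the probes below 0 at the 75th percentile, Lpin2 A_44_P1045748 (siRNA arrays below background) and Mogat1 stay below 0 throughout and the 2 upstream Dgat2 probes do not.

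Around the members, 45 other genes of glycerolipid synthesis were listed, of which 42 had a probe and 32 a kept one. By its brightest kept probe, 10 of the 32 rose (31.2%), 9 fell (28.1%) and 13 were not called, against 29.7% and 31.9% of all kept probes, with a median difference of 0.03. Median scaling turned the counts into 20 and 3, spike-in scaling into 27 and 1, and normexp into 3 and 1. Levels below are means ± SD over 4 arrays.

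Among the genes listed with the second acylation, beside Agpat3, 3 of 4 measured genes rose and none fell. That list takes in lysophospholipid acyltransferases such as Mboat1, and their use of lysophosphatidate was not tested. Mboat1, a lysophospholipid acyltransferase, went from -1.72 ± 0.29 to -0.32 ± 0.25, a difference of 1.40 ± 0.17 (SE; adjusted p 0.000287). Agpat5 went from -1.37 ± 0.20 to -0.60 ± 0.13, a difference of 0.78 ± 0.11 (SE; adjusted p 0.000565). In the first acylation, beside Gpam, Gpat4 of the endoplasmic reticulum rose by 0.26 ± 0.07 (SE; adjusted p 0.0115), and Gpat3 went from -2.54 ± 0.17 to -3.25 ± 0.30, a difference of -0.71 ± 0.16 (SE; adjusted p 0.00545). Of 3 measured genes of glycerol 3-phosphate supply, the glycerol channel Aqp7 was the one called, at -0.82 ± 0.17 (SE; adjusted p 0.00342), with 1 of 4 siRNA arrays above background. Aqp7 was kept through its NC arrays alone, so its call is no support and its size is not measured. The difference became -0.29 with spike-in scaling and -0.30 with normexp without the dim spots.

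Among 6 phosphatidate phosphatases and regulators of lipins, 3 rose and 1 fell. Ctdnep1, the phosphatase that acts on lipins, differed by 0.34 ± 0.04 (SE; adjusted p 0.000275) and Plpp1, a lipid phosphate phosphatase of the membrane, by 0.50 ± 0.07 (SE; adjusted p 0.000538). The lipin Lpin3 differed by -0.16 ± 0.05 (SE; adjusted p 0.0188), which became 0.14 with median and 0.38 with spike-in scaling. Toward CDP-diacylglycerol, Pgs1 was the one called of 3, at -0.32 ± 0.08 (SE; adjusted p 0.00788), and 0.22 with spike-in scaling.

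Of 10 measured genes that turn diacylglycerol into phospholipid, 2 rose and 4 fell. Chka, a choline kinase, went from -0.60 ± 0.14 to -1.79 ± 0.10, a difference of -1.18 ± 0.08 (SE; adjusted p 1.94e-05). Chpt1, the cholinephosphotransferase at the end of the same branch, went the other way, by 0.79 ± 0.07 (SE; adjusted p 4.44e-05). Pemt, which methylates phosphatidylethanolamine in liver, rose by 0.12 ± 0.05 (SE; adjusted p 0.0479) at its brightest probe. Its other kept probe, at 0.15, was not called. Selenoi differed by -0.39 ± 0.05 (SE; adjusted p 0.000445), which became 0.15 with spike-in scaling. Of 4 measured diacylglycerol kinases, Dgkz rose by 0.45 ± 0.08 (SE; adjusted p 0.00174; -0.12 with normexp), and Dgka differed by -0.44 ± 0.05 (SE; adjusted p 0.000190), which became 0.10 with spike-in scaling. Dgkd was not called by its brightest probe, at 0.12, while its probe A_44_P333452 was called lower, at -1.51. Its remaining kept probe, at -0.02, was not called.

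**Figure D5:**
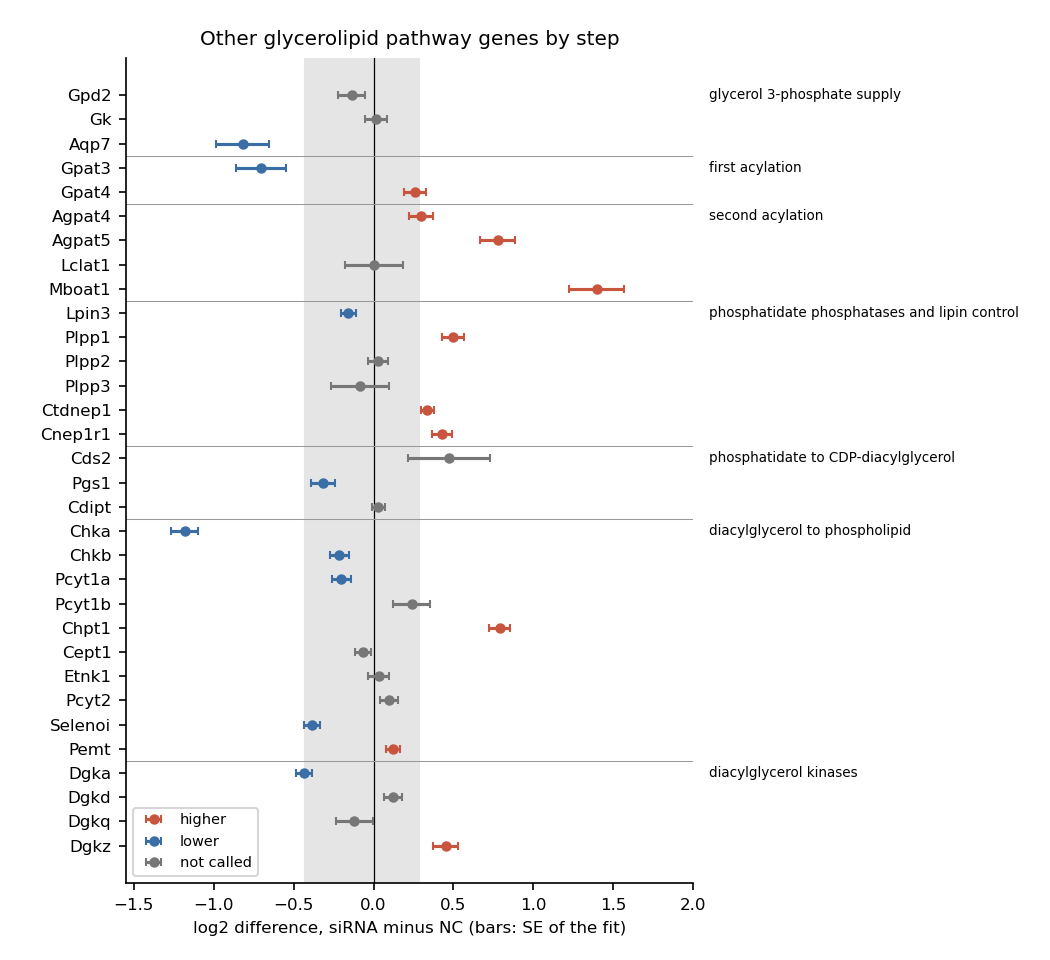
Log2 difference, siRNA minus NC (horizontal axis), with the SE of the fit for the 32 measured pathway genes that are not members, ordered by step and coloured by call; the grey band runs between the quartiles of all kept probes. By their brightest kept probes, Mboat1 at 1.40 and Chka at -1.18 are the genes past a 2-fold difference. The list for the second acylation, which includes Mboat1, holds 3 called genes, all higher.

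Markers of the cell types in which these enzymes are known to work were read on the same arrays. Of 13 hepatocyte markers, 7 had no kept probe (Alb, Ttr, Tf, Apob, Serpina1, Cps1 and Tat), 5 of which were above background on no array, so much of the hepatocyte program was not detected in this liver line. Of the 6 measured, Cyp2e1 rose by 4.94 ± 0.30 (SE). Hnf4a, above background on 1 of 4 NC arrays, was kept through its siRNA arrays alone, so its higher call is no support. Its difference of 0.84 ± 0.22 (SE) became -0.40 with normexp and 0.05 with the dim spots dropped first. G6pc1 differed by -1.13 ± 0.12 (SE). Krt18 was also lower, but its brightest probe, above background on 1 of 4 siRNA arrays, was kept through its NC arrays alone, so that call is no support. Of 6 measured fibroblast and stellate markers, Col3a1 rose by 2.66 ± 0.07 and Col1a2 by 0.61 ± 0.05 (SE). Pdgfrb differed by -0.50 ± 0.11 (SE), which became 0.03 with spike-in scaling. Vim, Des and the brightest probe of Col1a1 were not called, while the other Col1a1 probes rose by 0.45 and 0.66. Each array reads RNA from many cells, so fewer cells with a transcript and less of it per cell cannot be told apart.

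Of the markers of enterocytes, which use Mogat2 to absorb fat, Cdx2 and Lgals4 were kept, both through their NC arrays alone, so their lower calls are no support. Cdx2, above background on 0 of 4 siRNA arrays, was at least 2.27-fold lower by the bound used for Lpin2. Its log2 difference was -0.97 with normexp and -0.60 with the dim spots dropped first, both less than that bound. Lgals4, above background on 1 of 4 siRNA arrays, was lower with no measured size. Fabp2 and Vil1 had no kept probe. The summed signal of the enterocyte list, in multiples of the 75th percentile, was 0.302 to 0.696 on NC and 0.0527 to 0.123 on siRNA arrays. That sum takes in Cdx2 and Lgals4, so it is no separate support for a lower level. For the adipocyte list the summed signal was 0.109 to 0.401 and 0.0648 to 0.0869, for the macrophage list 2.06 to 2.60 and 0.519 to 0.696, for the hepatocyte list 1.16 to 1.49 and 5.07 to 6.83 (without Cyp2e1, 0.906 to 1.27 and 0.558 to 0.669), and for the fibroblast list 266 to 293 and 311 to 328. The hepatocyte sums take in Krt18 and Hnf4a, whose calls are no support. In the macrophage list Cd68 alone had a kept probe, with a difference of -2.39 ± 0.09 (SE). In the adipocyte list Adipoq alone had one, above background on 1 of 4 siRNA arrays. Adipoq was kept through its NC arrays alone, and those arrays differed widely among themselves. Its lower call and the sum of the adipocyte list are therefore no support. The part of these lists in the members' differences was not tested.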

How the data were processed

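Gene expression was measured on 8 one-colour arrays, 4 NC and 4 siRNA, grouped by the labels. The deposited scanner files hold spot intensity values from Agilent Feature Extraction 12.0.3.1, per the file headers (12.0 per the submitters' processing notes, which also name limma with no role); the processed intensity is background-subtracted and not scaled between arrays. A deposited table of log2 values for 86 probes holds none of a member and was not used. Probe positions come from the array design (rn4), and all 15 member probes matched a RefSeq accession of the same symbol (GRCr8 table).

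Outlier spots were left out, spots of a probe were averaged on the log2 scale after subtracting each array's 75th percentile, and probes well above background on at least 3 of 4 arrays of a group were kept (24853). The siRNA and NC groups were tested in limma 3.58.1 under R 4.3.3 (two-sided, Benjamini-Hochberg over kept probes, adjusted p under 0.05). Within-array pairs were compared by exact permutation in SciPy 1.17.1. The number of arrays limits the precision. On simulated data of 24829 probes for the comparison of siRNA with NC, 6% of log2 changes of 0.25 were recovered, 48% of 0.5, 76% of 1 and 92% of 2, and 3 of 114 calls were false. Only a small part of the simulated probes was changed, while 61.7% of kept probes were called in the data. The adjustment was therefore stricter in the simulation, and its shares do not carry over to these data.

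The members and the lists were chosen with earlier results of these data known. Genes were named by rule: every member by each probe, up to 2 called genes per direction and pathway step with the smallest adjusted p, and the 3 genes most like Gpam; marker genes outside this rule were named after their values were seen. Alternatives covered scaling, background correction, filters, outlier spots, the variance model, a replicate block and leaving out each array.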

Additional observations from a re-analysis of the deposited data

How the results depend on the processing

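Member probes higher, 5 with the settings used, became 10 with median scaling, 12 with spike-in scaling, 1 with normexp and 9 with normexp when spots dimmer than the local background were dropped first; those lower, 4, became 2, 2 and 1 under the first 3 of these. Pathway genes higher, 10, became 20, 27 and 3 with median scaling, spike-in scaling and normexp, and those lower, 9, became 3, 1 and 1. With normexp, 3649 probes were called in all, against 15327; 1 NC array had 10 such dim spots, and the cause of the other changes was not tested. Signs turned, among others, for Dgat2 A_43_P15649 (0.030 with the median, 0.26 with spike-ins), Dgat2 A_44_P180012 (0.042 and 0.27), Gpam (-0.0087 with normexp) and Agpat3 A_44_P927840 (-0.017 with normexp). So did the change between groups in the distance of Agpat2 from Agpat1 (-0.44 with normexp). The change in the distance of Mogat2 from the 3′ Dgat2 probe also turned, to -0.10 with normexp, with overlapping groups. Pairs called, 0, became 9 with normexp and 8 with normexp without the dim spots, the latter chosen after seeing the data, as were quantile normalization and cyclic loess for the pairs, each with 0 called and 7 not overlapping. Leaving out each array in turn gave 13600 to 15110 calls, 5 member probes higher and 3 to 4 lower, and 9 to 10 pathway genes higher and 8 to 9 lower; with 35 splits the pairs then have no test that can pass.

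Agpat2 was called with quantile normalization (0.20) and cyclic loess (0.14), and Dgat1 A_44_P515326 with trended, robust variances (adjusted p 0.0494). Same-numbered arrays deviated together at r = -0.03 to 0.21 and are not known to be paired; with the replicate block 14985 probes were called (15327 without), and 5 member probes were higher and 4 lower, as without it. The authors' deposited series table holds no member probe, so that alternative could not be run. Signal over background limits Lpin1 and Lpin2 A_44_P1045748.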
